A study of Mus musculus with 12 samples.

Results

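Lepr, Foxc1 and Ebf3 are genes whose products mark the reticular stromal cells of bone marrow. They were taken by rule as every probe set with exactly 1 gene symbol in the array annotation where that symbol was Lepr, Foxc1 or Ebf3. The rule gave 7 probe sets of 3 genes, with 2 for Lepr, 2 for Foxc1 and 3 for Ebf3, out of 3109 probe sets tested and 1974 named genes. Expression had been measured on 12 Affymetrix arrays of primary bone marrow stroma. Of these, 4 came from Crebbp+/- mice, 4 from Ep300+/- mice and 4 from wild-type mice, all C57BL/6 and 3 to 4 months old. In every genotype the marrow had been grown in M5300 medium for 2 weeks, after which the adherent layer received 1500 cGy of radiation and new medium. Crebbp+/- and Ep300+/- mice carry 1 inactive copy of the gene named, and both genes encode lysine acetyltransferases that serve as transcriptional coactivators. The labels name biological replicates without saying whether they were separate animals or cultures, so p-values measure the spread between these arrays.

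Reticular stromal cells wrap the sinusoids of the marrow and are its main source of the chemokine Cxcl12 and of stem cell factor, the product of Kitl, which hold and maintain haematopoietic stem cells. Lepr encodes the receptor for the fat hormone leptin, a cytokine receptor that signals through JAK2 and STAT3, and its expression is used to label these cells in adult mouse marrow. Foxc1 is a forkhead transcription factor and Ebf3 a member of the early B cell factor family of transcription factors, and both are known in mice to be needed by reticular cells to keep the marrow niche.

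Promoter windows of the 3 genes are shown as background, since Crebbp binds the phosphorylated form of CREB. Whether CREB or Crebbp has a part in the joint movement of the 3 genes over the arrays was not tested. Each window runs from 250 bases before to 50 bases after an annotated start, read 5′ to 3′ on the gene's own strand from RefSeq (build GRCm38.p6). Lepr had 2 annotated starts, at chr4:101717157-101717456 and chr4:101717656-101717955, both on the plus strand. Foxc1 had 1, at chr13:31806396-31806695 on the plus strand, and Ebf3 had 1, at chr7:137314396-137314695 on the minus strand. Capitals mark the cAMP response element core TGACG, searched on both strands and so also written CGTCA, and the early B cell factor core CCCNNGGG.
Lepr, upstream start: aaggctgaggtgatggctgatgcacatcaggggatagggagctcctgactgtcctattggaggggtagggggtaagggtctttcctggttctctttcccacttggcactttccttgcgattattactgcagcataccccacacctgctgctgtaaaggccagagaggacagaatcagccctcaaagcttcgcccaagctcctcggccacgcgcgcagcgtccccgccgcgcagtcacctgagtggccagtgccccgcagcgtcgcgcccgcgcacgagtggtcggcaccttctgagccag
Lepr, downstream start: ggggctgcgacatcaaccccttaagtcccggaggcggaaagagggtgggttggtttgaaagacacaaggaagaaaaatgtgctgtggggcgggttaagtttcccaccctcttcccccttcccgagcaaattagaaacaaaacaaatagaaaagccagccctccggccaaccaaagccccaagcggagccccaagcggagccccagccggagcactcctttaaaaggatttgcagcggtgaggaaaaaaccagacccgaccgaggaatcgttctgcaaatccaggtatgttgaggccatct
Foxc1: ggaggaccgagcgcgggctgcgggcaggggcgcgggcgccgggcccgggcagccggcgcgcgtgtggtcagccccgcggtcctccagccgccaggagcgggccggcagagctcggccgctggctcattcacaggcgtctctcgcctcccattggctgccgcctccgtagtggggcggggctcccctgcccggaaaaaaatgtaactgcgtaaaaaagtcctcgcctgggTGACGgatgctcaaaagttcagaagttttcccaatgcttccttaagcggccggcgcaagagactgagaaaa
Ebf3: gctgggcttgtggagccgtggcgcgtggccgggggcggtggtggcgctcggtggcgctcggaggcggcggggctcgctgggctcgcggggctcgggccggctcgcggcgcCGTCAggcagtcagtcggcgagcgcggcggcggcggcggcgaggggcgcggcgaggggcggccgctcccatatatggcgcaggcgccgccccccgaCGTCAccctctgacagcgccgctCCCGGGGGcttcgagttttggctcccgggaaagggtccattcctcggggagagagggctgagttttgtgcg
The Foxc1 window held TGACG once, 21 bases before the start, the Ebf3 window held it at 2 places, and neither Lepr window held it. Of all 32851 promoter windows of this length, 20.8% held that core. The core CCCNNGGG was found at 1 place in the Ebf3 window and in 13.7% of all windows. The forkhead motif GTAAACA was in none of the 4 windows and in 3.65% of all, and the TATA motif TATAAA was in none of the 4 and in 13.6% of all, both searched on both strands. The GC box GGGCGG, on either strand, was found at 3 places for Ebf3, at 1 for Foxc1, at 1 for the downstream Lepr start and at 0 for the upstream one, against 35.7% of all windows with at least 1. These matches describe letters and are not binding sites. The windows also differed in base composition, with a GC content of 77.0% for Ebf3, 67.3% for Foxc1, and 61.3% and 54.3% for Lepr, against a median of 52.7% over all windows. CpG pairs numbered 46 in the Ebf3 window, 32 in that of Foxc1, and 18 and 13 in those of Lepr, where the median window had 7.

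Values below are the authors' GCRMA levels on the log2 scale. They are relative levels, cannot be compared between probe sets, and at the low end may be background, which makes the size of differences there uncertain. The arrays are given by the replicate number of the labels, 1 to 4, within each genotype. Array medians lay between 7.98 and 8.43, and no array was a copy of another, with correlations across probe sets of at most 0.964. The arrays numbered 4 had medians of 7.98 to 8.15, against 8.09 to 8.43 on the other 9.

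Lepr, the receptor gene, was measured by 1456156_at and 1425644_at. The log2 level of 1456156_at was 9.89, 8.90, 9.89 and 4.85 on Crebbp+/- arrays 1 to 4, then 7.49, 5.87, 9.08 and 4.87 on Ep300+/- arrays 1 to 4, and 9.60, 7.17, 7.38 and 4.87 on wild-type arrays 1 to 4. The array numbered 4 was the lowest of each genotype, the 3 such arrays stood at almost the same level, and the genotypes overlapped. Means were 8.38 ± 2.40 in Crebbp+/-, 6.83 ± 1.85 in Ep300+/- and 7.26 ± 1.93 in wild-type stroma (SD, n = 4 each). The second Lepr probe set, 1425644_at, had log2 levels of 9.06, 8.26, 9.33 and 3.56 in Crebbp+/-, 6.42, 4.51, 8.36 and 4.02 in Ep300+/-, and 8.65, 6.28, 6.49 and 3.60 in wild-type stroma, with the arrays again in the order 1 to 4. Here too the array numbered 4 was the lowest of each genotype and the groups overlapped. The means of this probe set were 7.55 ± 2.70, 5.83 ± 1.98 and 6.25 ± 2.07 (SD, n = 4 each) in Crebbp+/-, Ep300+/- and wild-type stroma.

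Foxc1 moved far less. Probe set 1419485_at stood at log2 levels of 10.10, 10.20, 10.40 and 9.30 on the Crebbp+/- arrays, 9.41, 9.43, 9.76 and 8.37 on the Ep300+/- arrays, and 9.96, 9.32, 9.54 and 9.08 on the wild-type arrays, numbered 1 to 4. Number 4 was the lowest of each genotype, and the 3 other Crebbp+/- arrays were above every Ep300+/- and wild-type array. Means were 9.998 ± 0.48 in Crebbp+/-, 9.24 ± 0.61 in Ep300+/- and 9.47 ± 0.38 in wild-type stroma (SD, n = 4 each). Its other probe set, 1419486_at, gave 9.69, 10.24, 10.26 and 8.98 in Crebbp+/-, 9.09, 9.37, 10.07 and 8.51 in Ep300+/-, and 9.61, 9.22, 9.36 and 8.86 in wild-type stroma. Number 4 was again the lowest array in each genotype, and Ep300+/- 3 stood above Crebbp+/- 1. This probe set averaged 9.79 ± 0.60 in Crebbp+/-, 9.26 ± 0.65 in Ep300+/- and 9.26 ± 0.31 in wild-type stroma (SD, n = 4 each).

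Ebf3 was measured by 3 probe sets, of which 1452751_at had the highest mean. Its levels were 10.72, 10.85, 11.30 and 9.39 on Crebbp+/- arrays 1 to 4, 9.86, 9.76, 10.48 and 8.21 on Ep300+/- arrays 1 to 4, and 10.71, 9.95, 10.57 and 9.31 on wild-type arrays 1 to 4, all on the log2 scale. Ep300+/- 4 was the lowest of the 12 arrays, and the first 3 Crebbp+/- arrays were the highest. The means were 10.57 ± 0.82 in Crebbp+/-, 9.58 ± 0.96 in Ep300+/- and 10.14 ± 0.64 in wild-type stroma (SD, n = 4 each). Probe set 1428349_s_at, whose suffix in Affymetrix naming marks probes shared by more than 1 transcript, gave 9.52, 9.67, 9.78 and 7.997 in Crebbp+/-, 8.58, 8.58, 8.71 and 6.96 in Ep300+/-, and 9.32, 8.46, 8.48 and 7.76 in wild-type stroma. Its first 3 arrays of Crebbp+/- were above all others and Crebbp+/- 4 was below all but Ep300+/- 4 and wild-type 4. Its means were 9.24 ± 0.84 in Crebbp+/-, 8.21 ± 0.83 in Ep300+/- and 8.51 ± 0.64 in wild-type stroma (SD, n = 4 each). The third, 1460666_a_at, stood at 9.51, 10.04, 9.52 and 7.68 in Crebbp+/-, 7.96, 7.95, 8.14 and 4.16 in Ep300+/-, and 9.03, 8.01, 8.03 and 6.55 in wild-type stroma. Ep300+/- 4 stood far below the other 3 Ep300+/- arrays, Ep300+/- and wild-type levels overlapped, and Crebbp+/- overlapped with both through Crebbp+/- 4. Means of this probe set were 9.19 ± 1.04, 7.05 ± 1.93 and 7.91 ± 1.02 (SD, n = 4 each) in Crebbp+/-, Ep300+/- and wild-type stroma.

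**Figure D1:**
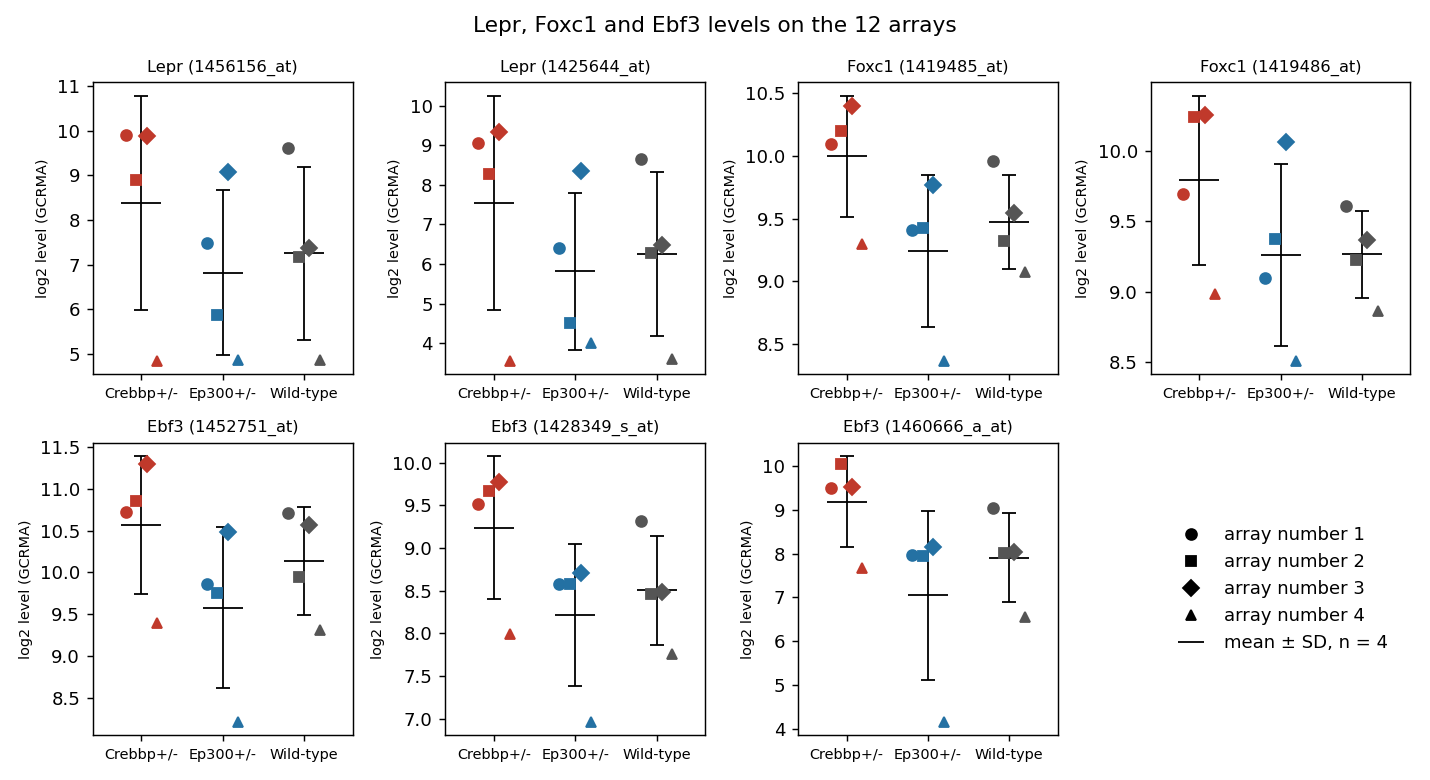
Log2 level (vertical axis, GCRMA) of the 7 probe sets of Lepr, Foxc1 and Ebf3 on each array, by genotype, with a marker shape for each replicate number and bars for the mean ± SD of 4 arrays. The array numbered 4 is the lowest of its genotype in all 7 panels, and the vertical axes differ between panels.

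In order of mean level, Crebbp+/- stood first for all 7 probe sets, wild type came next and Ep300+/- last, with the wild-type and Ep300+/- means of Foxc1 1419486_at only 0.0043 apart. Neighbours in this order overlapped. The 7 probe sets are of 3 genes that moved together (r from 0.770 to 0.997 between probe sets), so they are not 7 independent cases. Of all probe sets 62.4% had a higher mean in Crebbp+/- than in wild type. In Ep300+/- against wild type 54.8% were higher, and in Crebbp+/- against Ep300+/- 51.4%. For Crebbp+/- against wild type the groups of arrays overlapped for 7 of 7 probe sets, where 18.8% of all probe sets had groups that did not overlap. Limma called 0 of the 7 at an adjusted p under 0.05, against 6.18% of all probe sets, and 0 of the 7 had an unadjusted p under 0.05, against 26.7% of all. Exact two-sided permutation tests over the arrays gave p from 0.114 to 0.486, with 0.0286 the smallest that 4 against 4 arrays allow. Lepr 1456156_at had a log2 fold change of 1.13 (SE 1.25, 95% interval -1.58 to 3.84, limma adjusted p = 0.579). Lepr 1425644_at had 1.30 (interval -1.66 to 4.26), so for this gene changes of several fold in either direction lay inside the interval. Foxc1 was bounded more closely, with 0.52 for 1419485_at (SE 0.35, interval -0.24 to 1.29, limma adjusted p = 0.354) and 0.53 for 1419486_at (interval -0.28 to 1.34). Ebf3 had 0.43 for 1452751_at (interval -0.70 to 1.57), 0.73 for 1428349_s_at (interval -0.35 to 1.81) and 1.28 for 1460666_a_at (SE 0.85, interval -0.56 to 3.13, limma adjusted p = 0.348). The median log2 fold change of all probe sets in this comparison was 0.24.

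Arrays of the same number were also set beside each other. The Crebbp+/- array was above the wild-type array of its number in 4 of 4 cases for all 5 probe sets of Foxc1 and Ebf3, and in 3 of 4 for both of Lepr. Of all probe sets 62.4% had a higher mean in Crebbp+/-. The share that was higher in 4 of 4 cases was not counted, so nothing particular to the members can be read from these cases. With the replicate number as a block limma called 1 of the 7 probe sets, against 26.1% of all. That was Ebf3 1460666_a_at (log2 fold change 1.28, SE 0.41, limma adjusted p = 0.0460), while Ebf3 1428349_s_at had an adjusted p = 0.0510 and the other 5 probe sets had values between 0.0942 and 0.192. With array weights limma called 5 of 7, against 45.8% of all, and with weights estimated gene by gene 5 of 7, against 40.8% of all. Under the block the share called among the members was thus no higher than that of the table. Without the 3 arrays numbered 4, a choice made after the data were seen, the same probe set passed (log2 fold change 1.33, limma adjusted p = 0.0453), as 1 of 7 against 8.07% of all.

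Ep300+/- had lower means than wild type for all 7 probe sets, with log2 fold changes from -0.85 for Ebf3 1460666_a_at to -0.0043 for Foxc1 1419486_at. Limma called 0 of the 7, against 0% of all probe sets, and 0 of the 7 had an unadjusted p under 0.05, against 4.05% of all. The groups overlapped for 7 of 7 probe sets, where 4.15% of all probe sets did not overlap, and the exact two-sided permutation p lay between 0.400 and 0.971. For Lepr 1456156_at the log2 fold change was -0.43 (SE 1.25, 95% interval -3.14 to 2.28, limma adjusted p = 0.980). For Foxc1 1419485_at it was -0.23 (interval -0.997 to 0.53) and for Ebf3 1452751_at -0.56 (interval -1.69 to 0.58). The sign rested on single arrays for 6 of the 7 probe sets, and without Ep300+/- 4 Foxc1 1419486_at had a log2 fold change of 0.25 and Lepr 1456156_at of 0.22. Only Ebf3 1452751_at kept a negative value whichever 1 array was left out. The array weights gave 0 of 7, against 0.579% of all probe sets, and weights gene by gene 0 of 7, against 0.418%.

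Set against Ep300+/-, Crebbp+/- had the higher mean for all 7 probe sets. The 3 comparisons share arrays, each genotype entering 2 of them, so they are not independent. Limma called 0 of the 7, against 6.4% of all probe sets, and 1 had an unadjusted p under 0.05, against 25.2% of all. That one was Ebf3 1460666_a_at, with a log2 fold change of 2.14 (SE 0.85, 95% interval 0.29 to 3.98, limma adjusted p = 0.143). The groups overlapped for 7 of 7 probe sets, against 13.5% of all without overlap, and exact two-sided permutation p-values lay between 0.114 and 0.371. Foxc1 1419485_at had 0.76 (SE 0.35, interval -0.0062 to 1.52, limma adjusted p = 0.202) and Foxc1 1419486_at 0.53 (interval -0.28 to 1.35). Ebf3 had 0.99 for 1452751_at (interval -0.15 to 2.12) and 1.03 for 1428349_s_at (interval -0.049 to 2.11). Lepr had 1.56 for 1456156_at (interval -1.15 to 4.26) and 1.73 for 1425644_at (interval -1.23 to 4.69).

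Within numbers, the Crebbp+/- array was above the Ep300+/- array in 4 of 4 cases for the 5 probe sets of Foxc1 and Ebf3 and in 3 of 4 for those of Lepr, the exception being number 4. A higher mean in Crebbp+/- was found for 51.4% of all probe sets, and the share higher in 4 of 4 cases was again not counted. With the replicate number as a block limma called 4 of the 7, against 24.4% of all, each of them higher in Crebbp+/-. These were Ebf3 1460666_a_at (limma adjusted p = 0.0082), Ebf3 1452751_at (0.0140), Ebf3 1428349_s_at (0.0160) and Foxc1 1419485_at (0.0295). Lepr 1456156_at (limma adjusted p = 0.0861), Lepr 1425644_at (0.105) and Foxc1 1419486_at (0.140) did not pass. Without the 3 arrays numbered 4 and with no block, Ebf3 1460666_a_at alone passed (log2 fold change 1.67, limma adjusted p = 0.0219), as 1 of 7 against 5.92% of all. Array weights gave 6 of 7, against 49.3% of all, and weights gene by gene 6 of 7, against 40.9%.

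**Figure D2:**
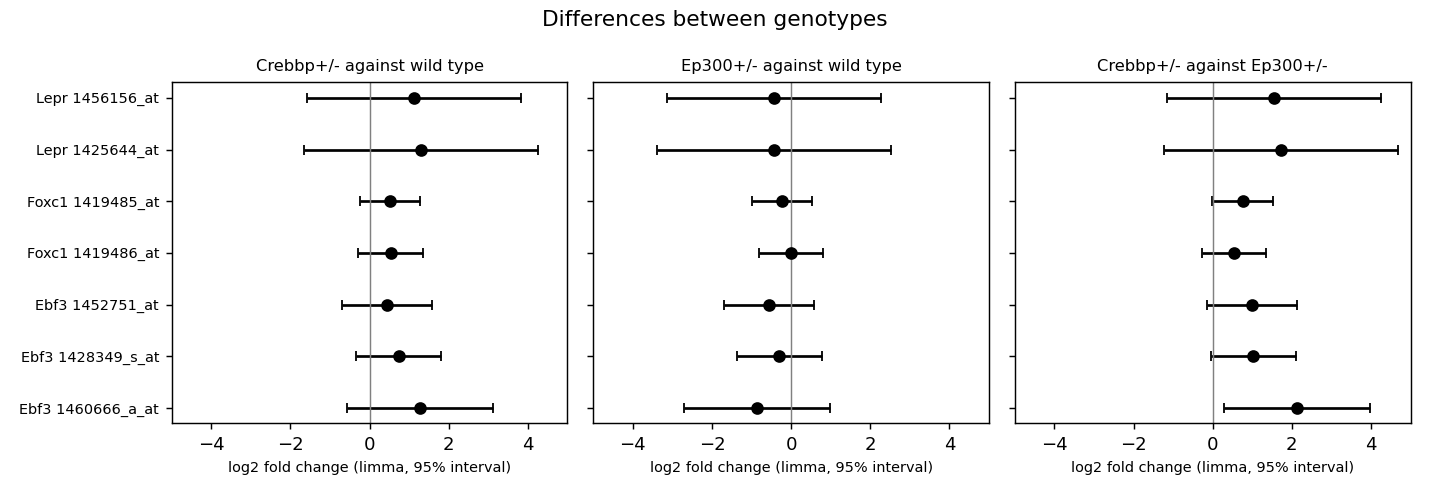
Log2 fold changes of the 7 probe sets (points) with limma's 95% intervals (bars) in the fit without a block, with a panel for each comparison. All intervals cross 0 except that of Ebf3 1460666_a_at in Crebbp+/- against Ep300+/-, from 0.29 to 3.98.

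One label check bears on these comparisons. Crebbp, the gene inactivated on 1 copy, stood at 7.88, 7.67, 7.71 and 7.72 on Crebbp+/- arrays 1 to 4, against means of 8.65 ± 0.12 in Ep300+/- and 8.52 ± 0.058 in wild-type stroma (SD, n = 4 each). These 4 arrays lay below all Ep300+/- arrays (8.48 to 8.73) and all wild-type arrays (8.45 to 8.59). Crebbp was thus steady on the Crebbp+/- arrays over which Lepr varied most. Ep300 had no probe set in the table analysed here.

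The arrays numbered 4 were chosen for a closer description after their values were seen. All 7 probe sets were lowest on number 4 in all 3 genotypes, a pattern shared by 11.9% of all probe sets. In single genotypes number 4 was the lowest array for 30.3% of all probe sets in Crebbp+/-, 50.2% in Ep300+/- and 21.9% in wild-type stroma. Lepr 1456156_at was lower on number 4 than the mean of the other 3 arrays by 26.2-fold in Crebbp+/-, 6.10-fold in Ep300+/- and 9.06-fold in wild-type stroma. For Ebf3 1452751_at the drop was 2.97-fold, 3.53-fold and 2.14-fold in the same order, and for Foxc1 1419485_at it was 1.91-fold, 2.25-fold and 1.45-fold. Of these 3 probe sets that of Lepr dropped most and that of Foxc1 least in each genotype, while Ebf3 1460666_a_at dropped by 14.5-fold in Ep300+/-. Lepr values near 4.9 and 3.6 may be background, so these folds are rough. In bulk samples such as these, fewer cells of a type and less RNA per cell cannot be told apart.

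Over all 12 arrays the highest and lowest level of Lepr differed by 33.0-fold for 1456156_at and 54.6-fold for 1425644_at. This range was wider than that of 97.5% and 98.5% of all probe sets. Ebf3 spanned 8.50-fold, 7.02-fold and 59.2-fold for 1452751_at, 1428349_s_at and 1460666_a_at, wider than 85.8%, 80.5% and 98.5% of all probe sets. Foxc1 spanned 4.09-fold and 3.37-fold, wider than 57.8% and 43.2%, so it varied about as much as a typical probe set of this table, which holds only variable ones.

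The spread over arrays was divided into parts for genotype, replicate number and the rest, a division added after the data were seen. Replicate number held 74.1% of the sum of squares for Lepr 1456156_at and genotype 11.8%. For Ebf3 1452751_at the shares were 69.5% for number and 24.5% for genotype, and for Foxc1 1419485_at they were 53.5% and 35.0%. Number was the larger of the 2 shares for all 7 probe sets, with 53.5% to 74.1% against 11.8% to 35.0%. The medians over all probe sets were 43.4% for number and 26.7% for genotype. Limma's F test of number called 5 of the 7 probe sets, the 2 of Lepr and the 3 of Ebf3 (adjusted p from 0.0268 to 0.0371), against 11.4% of all. Both Foxc1 probe sets missed it, with limma adjusted p-values of 0.0596 and 0.0675. The labels do not say what a number stands for.

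**Figure D3:**
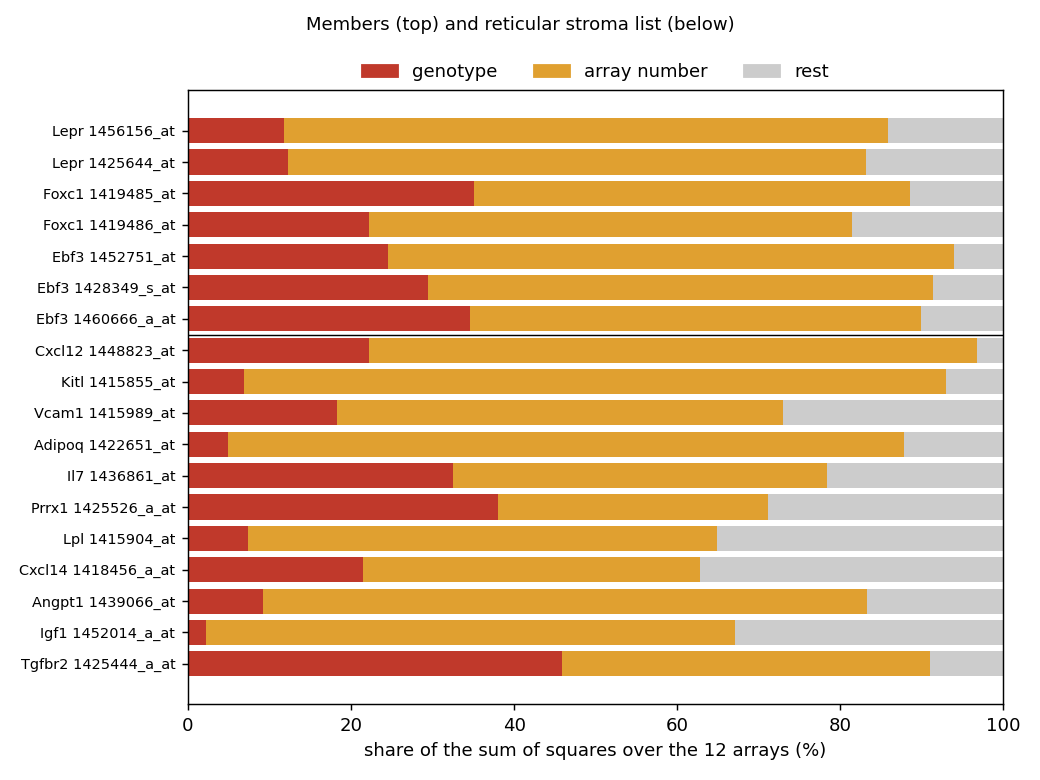
Share of the sum of squares over the 12 arrays (horizontal axis, %) held by genotype, replicate number and the rest, for the 7 probe sets of Lepr, Foxc1 and Ebf3 above the line and the other reticular stroma genes below it. Number is the longest part in all 7 upper bars, from 53.5% to 74.1%.

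The joint movement of the 3 genes was measured in 3 pairs, each gene standing for its probe set with the highest average level. Foxc1 and Ebf3 moved most closely together, with a Pearson r of 0.969 over the 12 arrays (permutation p = 1e-05, the smallest that 100000 resamples give, adjusted p = 1.5e-05) and a Spearman rho of 0.965. Lepr and Ebf3 had an r of 0.894 (permutation p = 1e-05, adjusted p = 1.5e-05) and a rho of 0.881 (p = 0.00023). Lepr and Foxc1 had an r of 0.877 (permutation p = 5e-05, adjusted p = 5e-05) and a rho of 0.888 (p = 0.00015). The permutation tests were two-sided and adjusted over the 3 pairs. They moved values freely between replicate numbers, so these p-values do not allow for what arrays of 1 number share.

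These relations did not rest on the extreme arrays. Without the 2 arrays farthest from the median of the first gene, r was 0.916 for Foxc1 and Ebf3, 0.906 for Lepr and Ebf3 and 0.900 for Lepr and Foxc1 (n = 10). Without the 3 arrays numbered 4 it was 0.928, 0.850 and 0.862 for these pairs (n = 9). Taken as deviations from the genotype means, r was 0.982, 0.898 and 0.890 for the same pairs. Exact permutation p-values were 0.000145, 0.000289 and 0.000868 over 13824 rearrangements within genotypes. These rearrangements also moved values between replicate numbers, so they share the limit of the tests above.

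After both genotype and number means were removed, r was 0.990 for Foxc1 and Ebf3, against 0.441 for Lepr and Ebf3 and 0.458 for Lepr and Foxc1. No p-value was computed for these values, the differences between them were not tested, and they varied with the probe set. After the same removal r ran from 0.628 to 0.990 over the probe sets of Foxc1 and Ebf3, from -0.071 to 0.553 over those of Lepr and Ebf3, and from 0.348 to 0.781 over those of Lepr and Foxc1, so the first and last of these ranges overlapped. Lepr 1456156_at with Foxc1 1419486_at kept 0.781, and Foxc1 1419486_at with Ebf3 1460666_a_at had 0.628. Before any removal the 16 pairs of probe sets from different genes had r from 0.770 to 0.982. The 5 pairs of probe sets of 1 gene had r from 0.927 to 0.997.

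**Figure D4:**
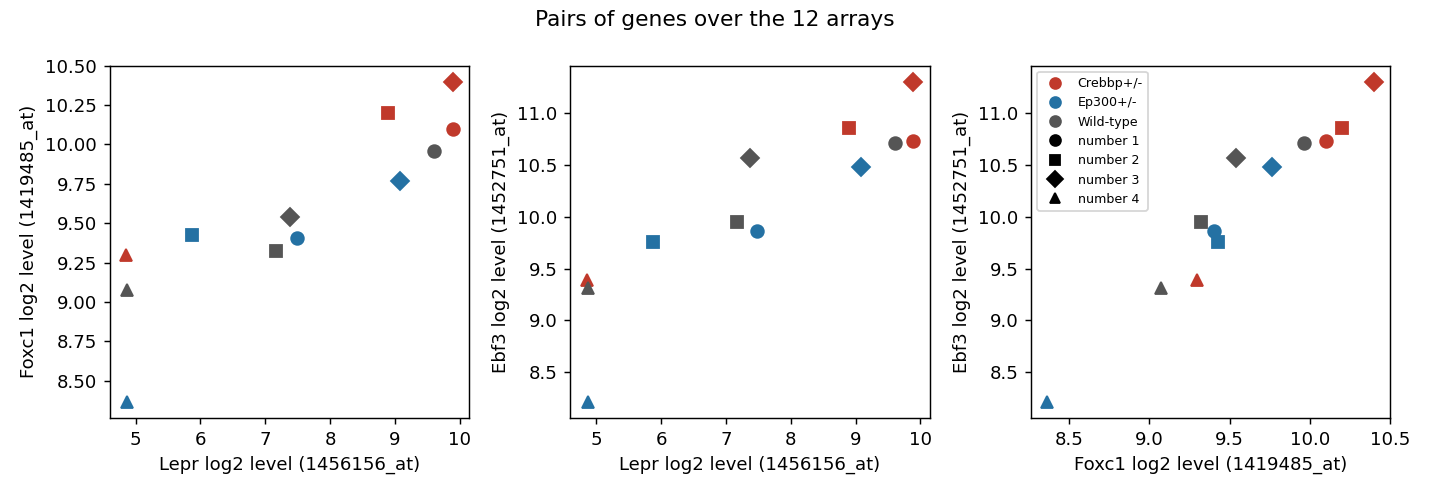
Log2 levels of Lepr, Foxc1 and Ebf3 against each other on the 12 arrays, by the probe set of highest mean, with colours for genotype and shapes for replicate number. Foxc1 and Ebf3 lie close to a line (r = 0.969), and in the panels with Lepr the 3 arrays numbered 4 share a Lepr level of about 4.9 at different levels of the other gene.

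The genes nearest in pattern were ranked by r over the same 12 arrays among 1973 other genes, each again by its highest probe set. These values are descriptions, since all points share the same arrays. Closest to Lepr were Aoc3, an amine oxidase of adipocytes and vascular smooth muscle (r = 0.970), Epb41l4b (0.963), the semaphorin receptor subunit Plxna2 (0.958), Gdpd2 (0.952) and the phospholipid scramblase Plscr4 (0.951). Foxc1 was nearest to the matrix protease gene Adamts9 (0.979), the anion transporter gene Slc26a7 (0.975), Maob, a monoamine oxidase (0.974), the hypoxia-inducible factor gene Epas1 (0.970) and Fbln5, an elastic fibre protein (0.970). For Ebf3 the nearest were Slc26a7 (0.984), Id4, an inhibitor of helix-loop-helix transcription factors (0.979), Epas1 (0.979), Cxcl12 (0.977) and Kng1, the kininogen gene (0.970). Slc26a7 and Epas1 were thus among the 5 nearest genes of both transcription factors.

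At the other end, the lowest r with Lepr belonged to Tmtc4 (-0.930), the actin-binding profilin gene Pfn2 (-0.926) and the kinase gene Mapk13 (-0.920). For Foxc1 these were Rrm2, a subunit of ribonucleotide reductase (-0.933), the kinase gene Prkg2 (-0.929) and Ndrg4 (-0.928). For Ebf3 they were the myosin gene Myo1e (-0.944), Comtd1 (-0.914) and the serotonin receptor gene Htr1b (-0.902). An r of 0.8 or more was common in this table, with 111 of 1973 genes (5.63%) for Lepr, 186 (9.43%) for Foxc1 and 122 (6.18%) for Ebf3. Ebf3 ranked 6 among the genes nearest to Foxc1, and Foxc1 ranked 6 for Ebf3. Lepr stood lower, at rank 85 for Foxc1 and 47 for Ebf3. Of the 50 nearest genes of each, Foxc1 and Ebf3 shared 34, Lepr and Ebf3 29, and Lepr and Foxc1 27, while 22 were common to all 3.

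The reticular stroma list held 24 genes, of which 14 were measured. Apart from Lepr, Foxc1 and Ebf3, the 11 measured genes had 0 calls by limma in each of the 3 comparisons. Of all probe sets 6.18% were called in Crebbp+/- against wild type, 0% in Ep300+/- against wild type and 6.4% in Crebbp+/- against Ep300+/-. At an unadjusted p under 0.05 there was 1 of 11 in Crebbp+/- against wild type, against 26.7% of all probe sets, 0 of 11 in Ep300+/- against wild type, against 4.05%, and 1 of 11 in Crebbp+/- against Ep300+/-, against 25.2%. With the block 1 of 11 was called in Crebbp+/- against wild type, against 26.1% of all, and 1 of 11 in Crebbp+/- against Ep300+/-, against 24.4%. Their median log2 fold change was 0.31 in Crebbp+/- against wild type, -0.11 in Ep300+/- against wild type and 0.32 in Crebbp+/- against Ep300+/-, beside 0.24, 0.049 and 0.025 over all probe sets. Tgfbr2, a TGF-beta receptor, was the call under the block, higher in Crebbp+/- than in wild type (log2 fold change 0.96, limma adjusted p = 0.0220) and than in Ep300+/- (1.22, limma adjusted p = 0.0091).

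Several niche factors of the list had high r with the members. An r of 0.8 or more was reached by 5.63% of other genes for Lepr, 9.43% for Foxc1 and 6.18% for Ebf3. Aoc3 for Lepr and Slc26a7 for Foxc1 and Ebf3, outside this list, had higher r than the genes below. Replicate number held 74.6% of the sum of squares of Cxcl12, 86.2% of Kitl, 74.1% of Angpt1 and 54.8% of Vcam1. The r values below were taken without removal of number means. Cxcl12 averaged 14.66 ± 0.47 in Crebbp+/-, 14.16 ± 0.46 in Ep300+/- and 14.41 ± 0.38 in wild-type stroma on the log2 scale (SD, n = 4 each), and its r was 0.922 with Lepr, 0.949 with Foxc1 and 0.977 with Ebf3. Kitl had r of 0.888, 0.872 and 0.950 with the 3 genes in that order, and Angpt1, a ligand of the receptor Tek, had 0.914, 0.922 and 0.944. The adhesion molecule gene Vcam1 followed with 0.813, 0.853 and 0.854. Adipoq, which encodes the hormone adiponectin, was closer to Lepr (0.869) than to Foxc1 (0.652) or Ebf3 (0.763), as was the lipoprotein lipase gene Lpl (0.834, 0.575 and 0.574). These differences in r were not tested. Il7, Igf1 and Tgfbr2 had r between 0.376 and 0.674 with the 3 genes, the homeobox gene Prrx1 between 0.066 and 0.325, and the chemokine gene Cxcl14 between -0.242 and 0.032. The array numbered 4 was the lowest in all 3 genotypes for Cxcl12, Kitl, Vcam1, Adipoq, Il7 and Angpt1, but not for Prrx1, Lpl, Cxcl14, Igf1 or Tgfbr2. Of all probe sets 11.9% had this pattern, among them some genes of other lists. The mean level of all 14 measured genes of the list was 9.14 to 9.50 on the arrays numbered 4, against 9.82 to 10.65 on the other 9. Lepr, Foxc1 and Ebf3 are part of this mean and their own drop on number 4 enters it, so it does not describe the other genes alone.

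**Figure D5:**
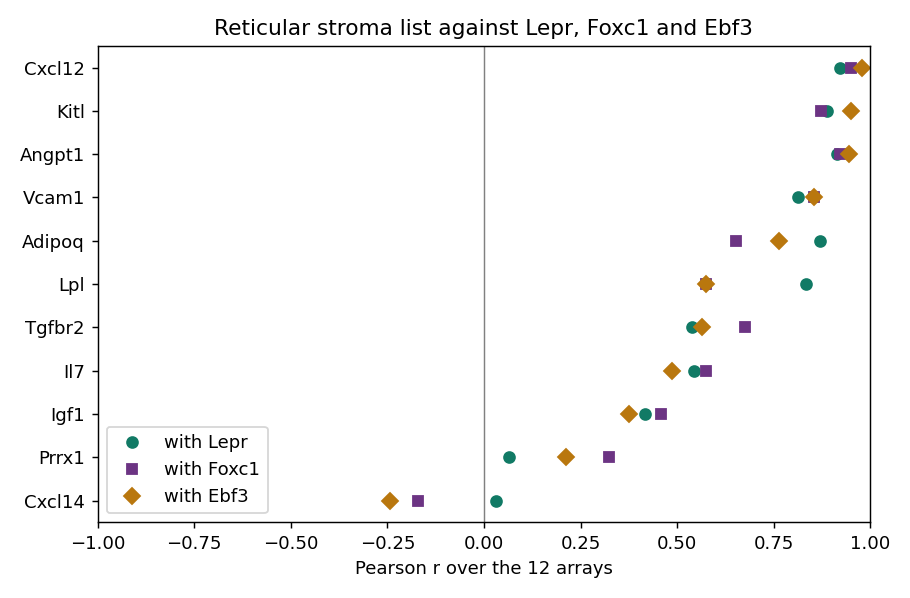
Pearson r over the 12 arrays (horizontal axis) of the 11 other measured reticular stroma genes with Lepr, Foxc1 and Ebf3. Cxcl12, Kitl, Angpt1 and Vcam1 have r above 0.8 with all 3 genes, and Prrx1 and Cxcl14 have r of at most 0.325.

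Genes that act with the members were measured in part. Of the leptin receptor signalling list 6 of 19 genes were measured, Lepr among them. None of the other 5 passed limma's test in any comparison, with or without the block, and 0 had an unadjusted p under 0.05. Of all probe sets 6.18% passed in Crebbp+/- against wild type, 0% in Ep300+/- against wild type and 6.4% in Crebbp+/- against Ep300+/-. With the block these shares were 26.1%, 0.0322% and 24.4%. At an unadjusted p under 0.05 without it they were 26.7%, 4.05% and 25.2%. The median log2 fold change of these 5 genes was 0.52 in Crebbp+/- against wild type, 0.49 in Ep300+/- against wild type and -0.41 in Crebbp+/- against Ep300+/-. Their r with Lepr was -0.325 for Stat3, the transcription factor downstream of the receptor, and 0.298 for Socs3, its feedback inhibitor. It was -0.211 for the phosphatase gene Ptpn2, 0.546 for the adaptor gene Irs2 and 0.566 for the kinase gene Pim1. None of these 5 thus reached the r of Cxcl12 or Kitl with Lepr. Of the Fox family list 3 of 18 genes were measured, with Foxo1 at an r of 0.699 and Foxp1 at -0.305 with Foxc1. Neither passed limma's test or had an unadjusted p under 0.05, beside the same shares of all probe sets. Of the Ebf family and partners only Ebf3 was measured, 1 of 7.

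Markers of other cell types were read on the same arrays. Endothelial markers were measured for 12 of 14 genes, with list means of 7.74 to 9.78 on the Crebbp+/- arrays, 6.26 to 7.31 on the Ep300+/- arrays and 6.86 to 8.10 on the wild-type arrays. Of the 12, 8 were called higher by limma in Crebbp+/- than in wild type, where 6.18% of all probe sets were called. All 12 were called higher than in Ep300+/-, against 6.4% of all. An r of at least 0.8 was reached by 10 with Foxc1, 0 with Lepr and 0 with Ebf3. Of all other genes 9.43%, 5.63% and 6.18% reached it. The r ran from 0.597 to 0.886 with Foxc1, 0.403 to 0.789 with Lepr and 0.451 to 0.796 with Ebf3. For deviations from genotype means the ranges were 0.213 to 0.882, 0.276 to 0.910 and 0.181 to 0.815. Differences between the 3 were not tested. Smooth muscle and pericyte markers (4 of 9 measured) had list means of 8.97 to 9.52 in Crebbp+/-, 7.46 to 8.48 in Ep300+/- and 7.49 to 8.66 in wild-type stroma, with 2 of the 4 at an r of at least 0.8 with Foxc1. Adipocyte markers (8 of 12 measured) had list means of 9.27 to 9.73 on the arrays numbered 4 and 10.12 to 11.32 on the other 9, and 4 of the 8 had an r of at least 0.8 with Lepr. Of the 8, limma called 1 in Crebbp+/- against wild type, where 6.18% of all probe sets were called. That was the fatty acid transporter gene Cd36 (log2 fold change -0.97, limma adjusted p = 0.0293). With the block it called 2 of the 8, against 26.1% of all. Genotype held 82.4% of the sum of squares of Cd36 and number 5.77%, while for the other 7 number was the larger of these shares, from 41.2% to 83.0%. Adipoq and Lpl stand in both this list and the reticular stroma list. Fibroblast matrix genes (7 of 12 measured) had list means of 8.48 to 9.39, 8.66 to 9.14 and 9.19 to 9.34 in Crebbp+/-, Ep300+/- and wild-type stroma, and 0 of the 7 had an r of at least 0.8 with any of Lepr, Foxc1 and Ebf3. Macrophage (4 of 13), osteoblast (3 of 9) and cartilage (4 of 8) markers also had 0 at that r with each of the 3 genes. No granulocyte marker of 8 and no erythroid or lymphoid marker of 8 was in the table analysed here. The part of any other cell type in the levels of Lepr, Foxc1 and Ebf3 was not tested.

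Eif2s3y, a gene of the Y chromosome, had log2 levels of 2.73 on Crebbp+/- 1 and 2.69 on Crebbp+/- 3, against 8.41 to 10.84 on the 10 remaining arrays. Those 2 arrays were also the highest for Lepr 1456156_at. Xist, the other sex-linked gene measured, had log2 levels of 9.63 to 12.21 over the 12 arrays. It stood at 12.19 on Crebbp+/- 1 and 12.21 on Crebbp+/- 3, but also at 11.99 on Crebbp+/- 2 and 11.72 on Ep300+/- 4. Eif2s3y was at 8.41 and 8.49 on these last 2 arrays. The 2 genes thus did not divide the arrays alike, and the sex of the mice was not tested. With the Eif2s3y level as a covariate limma called 0 of the 7 probe sets in each comparison, against 0% of all 3109, so these counts say nothing particular about Lepr, Foxc1 or Ebf3. The log2 fold change of Lepr in Crebbp+/- against wild type then turned to -0.53 for 1456156_at and -0.56 for 1425644_at, while those of Foxc1 and Ebf3 stayed above 0, from 0.086 to 1.16.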

How the data were processed

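The values deposited by the authors are log2 levels from GCRMA, as named in the submitters' processing notes. Neither the version of GCRMA nor the chip definition was given there. GCRMA uses probe sequence to remove background, brings the arrays to a common scale and combines the probes of a probe set. The table held 3127 probe sets, 18 of them controls, and every one of the 3109 tested had an interquartile range of at least 0.5001, so the table is a variable part of the chip. Of these, 2486 had 1 gene symbol, 176 several and 447 none in the platform annotation, and 2482 of the 2486 were matched by gene ID to the RefSeq table of GRCm38.p6.

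The test was limma 3.58.1 under R 4.3.3, with lmFit and then eBayes, on all 12 arrays together with a mean per genotype, two-sided, with Benjamini-Hochberg adjustment over all 3109 probe sets and a threshold of 0.05. Exact permutation tests used all 70 regroupings of 4 against 4 arrays. Correlations used numpy 2.4.6 and scipy 1.17.1. The fits were checked on simulated data. The number of arrays limits the precision.

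The members, the gene lists, the tests and the alternatives were chosen with earlier results of these data known. Genes named were the 3 members, Crebbp and Ep300, all measured genes of the reticular stroma, leptin receptor signalling, Fox family and Ebf family lists, and for each member the 5 genes of highest and the 3 of lowest r. Other lists are given as counts. Marker lists covered endothelial, macrophage, osteoblast, adipocyte, smooth muscle and pericyte, cartilage, fibroblast matrix, granulocyte, and erythroid and lymphoid cells.

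The labels give each genotype the same replicate numbers without saying what they share. Arrays of 1 number deviated together from their genotype means, at an r of 0.448 to 0.603 between Crebbp+/- and wild type and 0.294 to 0.513 between Crebbp+/- and Ep300+/-. As all were over 0.1, the numbers were taken from the data to pair those arrays and the blocked values stand beside the results. Alternatives were quantile normalization, median centring, a filter at a mean of 7, eBayes with trend and robust, array weights, the replicate block, an Eif2s3y covariate, the 2 genotypes compared alone, and leaving out each array. Array weights gene by gene, leaving out the 3 arrays numbered 4 and the removal of number means were added after the data were seen.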

Additional observations from a re-analysis of the deposited data

Results flagged for a closer look

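In 17 of 138 groups of 4 arrays, each the levels of 1 named probe set in 1 genotype, 1 array stood far from the other 3 by Dixon's test, which marks about 1 in 20 such groups by chance. Of the 17 arrays, 15 were numbered 4. Some of the named genes were chosen for extreme r with the members, which were themselves lowest on number 4. The groups were thus not independent, and neither count can be set against chance. Values here are log2 levels. Ebf3 1428349_s_at stood at 7.997 on Crebbp+/- 4 (others of that genotype 9.52 to 9.78) and at 6.96 on Ep300+/- 4 (others 8.58 to 8.71). Ebf3 1460666_a_at stood at 4.16 on Ep300+/- 4 (others 7.95 to 8.14). No probe set of Lepr or Foxc1 was marked.

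Among the reticular stroma genes, Crebbp+/- 4 was low for Cxcl12 (13.96, others 14.85 to 14.92), Lpl (12.01, others 13.16 to 13.31) and Angpt1 (8.06, others 9.43 to 9.57), and Ep300+/- 4 was low for Igf1 (10.40, others 11.26 to 11.35). Of the signalling and Fox family genes, Crebbp+/- 3 was high for Stat3 (7.96, others 6.78 to 6.90) and for Socs3 (13.85, others 11.02 to 11.18), and Crebbp+/- 4 was low for Foxo1 (6.49, others 7.28 to 7.38).

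Among the genes nearest in pattern, Crebbp+/- 4 was low for Maob (10.12, others 12.02 to 12.25), Fbln5 (12.04, others 12.87 to 12.97) and Kng1 (9.98, others 11.31 to 11.47), and Ep300+/- 4 was low for Fbln5 (11.28, others 12.24 to 12.41). Of the genes with the lowest r, Crebbp+/- 4 was high for Prkg2 (6.33, others 3.47 to 3.96) and Ndrg4 (11.54, others 10.59 to 10.68), and wild-type 4 was high for Comtd1 (8.62, others 8.04 to 8.07).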

How the results depend on the processing

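No member probe set was called in any comparison with quantile normalization, median centring, the filter on low values (which left out Lepr 1425644_at), eBayes with trend and robust, the Eif2s3y covariate (0 of all 3109 called), 2 genotypes alone, or any 1 array left out, where the counts ranged from 0 to 0. Blocking on the replicate number gave 1 of 7 in Crebbp+/- against wild type, 4 in Crebbp+/- against Ep300+/- and 0 in Ep300+/- against wild type, where 1 of 3109 probe sets passed. There the same-number r was 0.534, 0.345, 0.0593 and 0.683 for numbers 1 to 4. As that of number 3 was under 0.1, those arrays were not taken as pairs. The blocked fit nevertheless had the same number terms for all 3 genotypes. Without the 3 arrays numbered 4 the counts were 1, 1 and 0. Array weights gave 5, 6 and 0 of 7, whether estimated by default, where Crebbp+/- 1 had a weight of 10.3 (others 0.309 to 3.44) and the estimate stopped before convergence, or gene by gene. The cause of these shifts was not tested.

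In Ep300+/- against wild type 19 of 153 log2 fold changes turned positive. With single arrays left out, the values ran from -1.22 to 0.35 for Lepr 1456156_at, from -1.31 to 0.37 for Lepr 1425644_at, from -0.41 to 0.058 for Foxc1 1419485_at, from -0.27 to 0.25 for Foxc1 1419486_at, from -0.55 to 0.12 for Ebf3 1428349_s_at and from -1.31 to 0.11 for Ebf3 1460666_a_at. The arrays whose absence turned the sign were Ep300+/- 4 for all 6, wild-type 1 for both of Lepr and for Foxc1 1419486_at, Ep300+/- 2 for Lepr 1425644_at, and Ep300+/- 1 and wild-type 3 for Foxc1 1419486_at. Without the arrays numbered 4 Foxc1 1419486_at had 0.11. With array weights Foxc1 1419486_at and Ebf3 1428349_s_at each had 0.042, and with weights gene by gene Foxc1 1419485_at had 0.0066, Foxc1 1419486_at 0.090, Ebf3 1428349_s_at 0.13 and Ebf3 1460666_a_at 0.064. In Crebbp+/- against wild type only Lepr turned, to -0.53 and -0.56 with the Eif2s3y covariate, and in Crebbp+/- against Ep300+/- no value turned.

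With any 1 array left out r stayed within 0.855 to 0.904 for Lepr and Foxc1, 0.875 to 0.926 for Lepr and Ebf3 and 0.941 to 0.987 for Foxc1 and Ebf3. With quantile normalization it was 0.740, 0.777 and 0.969, and after genotype and number means were removed 0.458, 0.441 and 0.990.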
